A study of Mus musculus with 22 samples.

Results

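The 6 genes described here, Cd79b, Cd79a, Ighm, Igkc, Igll1 and Pou2af1, encode parts of the B cell receptor, the pre-B cell receptor and a B cell coactivator, and were followed through thymocytes, which are T-lineage cells. They were chosen by gene name as known or likely targets of the E2A transcription factors, and are 6 of 43430 genes in the deposited tables. RNA had been sequenced from sorted CD45.1+ CD4+CD8+ thymocytes, called double-positive because they carry both coreceptors. The study's title concerns how E2a acts as a tumour suppressor in T cell leukaemia through competition between thymocytes. The RNA of 22 libraries in 7 groups was measured, in 3 tables of FPKM (fragments per kilobase of gene, scaled to depth).

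Vav knockouts (VcKO) had the genotype VavCre E2aF/F, in which a floxed E2a gene is deleted by a Cre recombinase expressed throughout blood cells, and were sampled at 4 weeks of age (n = 3) and 8 weeks (n = 3). Lck knockouts (LcKO) had the genotype LckCre E2aF/F, with a Cre expressed in developing T cells, and were sampled at 4 weeks (n = 3). Transplanted knockouts (TPT) were VavCre E2aF/F mice that had been irradiated at a sublethal dose and given wild-type bone marrow, and were sampled 4 weeks after this, at 8 weeks (n = 4). Each table had its own controls of the genotype E2aF/F, for which the labels name no Cre: Vav controls at 4 weeks, Lck controls at 4 weeks and Vav controls at 8 weeks (n = 3 each). All 7 groups therefore carried the floxed alleles. The labels do not say whether CD45.1 marked host or donor cells in the transplanted mice. They also name no animals, so every p-value below measures the spread between libraries, which may be partly technical. In bulk RNA, fewer cells that express a gene and less RNA per cell cannot be told apart.

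E2A proteins, the products of the gene Tcf3, are basic helix-loop-helix factors that bind short DNA motifs called E boxes. In bone marrow they act with EBF1 and PAX5 to start the B cell programme, and in the thymus they promote T cell receptor gene assembly and restrain proliferation. The B cell receptor is a membrane immunoglobulin whose heavy and light chains bind antigen, while the CD79A and CD79B chains beside it carry the signal inward. In precursor B cells a surrogate light chain, of which Igll1 encodes the part called lambda5, stands in for the light chain.

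RefSeq promoter sequences (build GRCm38.p6) were found for 3 of the 6 genes, Cd79a, Igll1 and Pou2af1. They are shown because the E box is the motif to which E2A binds. Only bases before the annotated gene start are printed, 5′ to 3′ on the gene's own strand, with every E box (CANNTG, in which N is any base) in capitals. The Cd79a run covers chr7:24897247-24897380 on the plus strand, the Igll1 run chr16:16863986-16864235 on the minus strand and the Pou2af1 run chr9:51213440-51213689 on the plus strand.
Cd79a: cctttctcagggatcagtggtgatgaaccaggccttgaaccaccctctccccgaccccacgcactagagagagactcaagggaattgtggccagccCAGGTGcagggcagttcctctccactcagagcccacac
Igll1: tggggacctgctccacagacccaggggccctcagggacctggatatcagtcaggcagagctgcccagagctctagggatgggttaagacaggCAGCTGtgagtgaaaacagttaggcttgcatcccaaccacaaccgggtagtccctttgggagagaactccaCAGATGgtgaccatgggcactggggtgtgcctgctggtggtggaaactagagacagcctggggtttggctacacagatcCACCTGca
Pou2af1: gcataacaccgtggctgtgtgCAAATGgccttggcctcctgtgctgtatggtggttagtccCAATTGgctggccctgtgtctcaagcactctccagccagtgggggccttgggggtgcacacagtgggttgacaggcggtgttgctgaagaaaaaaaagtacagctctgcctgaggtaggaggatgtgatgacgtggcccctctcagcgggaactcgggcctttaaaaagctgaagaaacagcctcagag
Counted from the RefSeq start, the E boxes in the Cd79a window of 250 bases begin at positions -154 and -117, the second of them with the last base printed. Those in the Igll1 window begin at positions -158, -87 and -8, and those in the Pou2af1 window at positions -229 and -189. The first E box of Cd79a is CAGGTG, which the last one of Igll1 spells when read from the other strand. The first E box of Igll1 is CAGCTG, while the Pou2af1 window held neither form. Any CANNTG is also a CANNTG when read from the other strand. Of 32851 RefSeq promoter windows of 250 bases, 66.2% held CANNTG, 17.2% held CAGGTG on either strand and 13% held CAGCTG. These matches describe letters in a window and were not tested for binding.

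Tcf3, the deleted gene, had low values with both drivers, and no knockout library reached a control. Knockout libraries lay between 1.15 and 2.32 FPKM, against 6.39 to 8.22 FPKM in controls, with adjusted p between 0.000363 and 0.00165 in limma. The sorted libraries carried the markers of double-positive cells, all 7 of which passed 1 FPKM in every group. Their summed level was 3506 to 4147 FPKM in Vav knockouts at 4 weeks, 4228 to 4487 FPKM in Lck knockouts, 2515 to 2695 FPKM in Vav knockouts at 8 weeks and 1797 to 3394 FPKM in transplanted knockouts, against 4532 to 4968 FPKM in controls. Differences of those 7 markers are given on the log2(FPKM + 1) scale. Rag1, which encodes a recombinase of receptor gene assembly, fell in Vav knockouts by 0.53 at 4 weeks (limma adjusted p = 0.0175). At 8 weeks it fell by 1.45 in Vav knockouts (limma adjusted p = 0.0475) and by 1.54 in transplanted knockouts (limma adjusted p = 0.0308). In Lck knockouts Rag1 differed by -0.35 and did not pass (limma adjusted p = 0.0536). Its Vav effect minus its Lck effect was -0.18 (limma adjusted p = 0.445). Cd4 fell by 0.47 in Vav knockouts at 4 weeks (limma adjusted p = 0.0179). The Vav effect at 8 weeks minus that at 4 weeks was called for 18.2% of 10489 genes, with 9.37% called as lower. Among the 7 markers it was below 0 and called for 5, Cd4, Cd8a, Rag1, Cd8b1 and Cd1d1. For these 5 it lay between -0.96 and -0.63. The part of these shifts in the results that follow was not tested. Transplanted replicate 3 stood apart, with a median correlation of 0.827 with its own group, against at least 0.908 in all other libraries. Depth inferred from the lowest values was 5.49 to 37.4 M reads per library. Of 11 B cell markers other than the 6 genes, including Ms4a1, Cd22 and Pax5, none (0) reached 1 FPKM in any library. The sum of those 11 markers lay between 0.125 and 0.909 FPKM in every library.

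**Figure D1:**
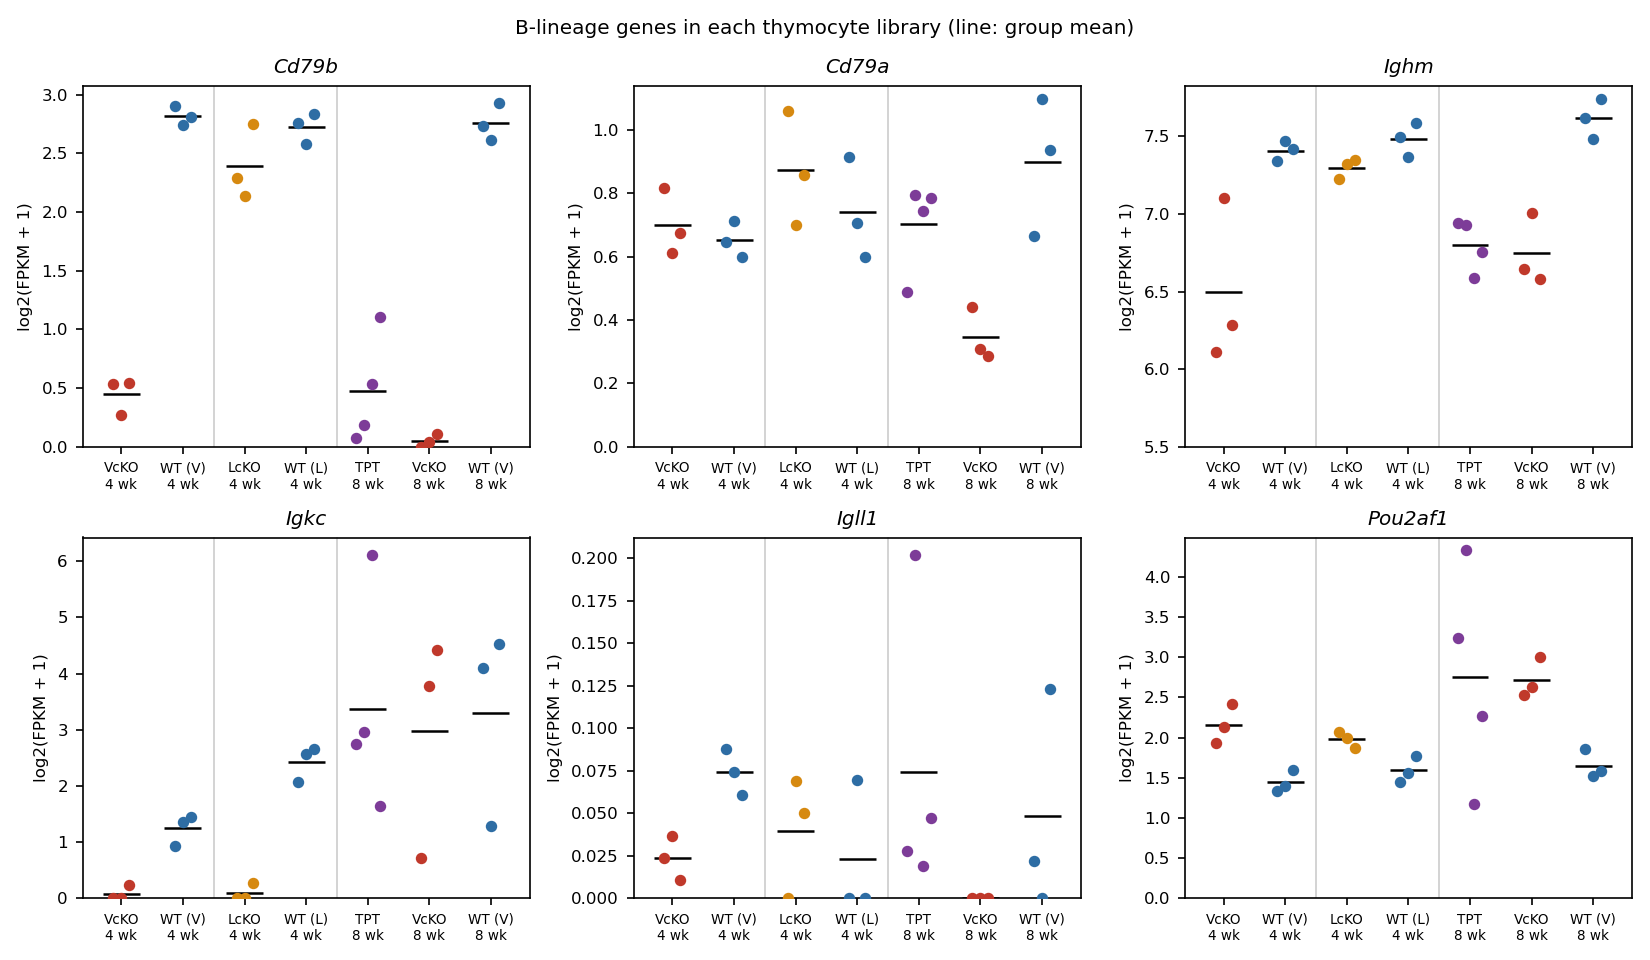
FPKM of the 6 genes in each library as log2(FPKM + 1), with a point for each library and a line at the group mean, and groups of the same table between grey lines. Cd79b sat between 0 and 1.15 FPKM in every Vav-deleted library, transplanted ones included, against 3.40 FPKM or more in Lck knockouts and all controls. The Ighm axis starts at 5.5, and the other axes start at 0.

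Cd79b (ENSMUSG00000040592, mm10 chromosome 11, 106311341 to 106314762, minus strand, protein-coding), the signalling chain also called Ig-beta, was nearly lost in thymocytes with VavCre but not in those with LckCre. At 4 weeks the Vav knockouts had 0.445, 0.208 and 0.459 FPKM, against 6.47, 5.71 and 6.01 FPKM in Vav controls. The highest knockout library was far below the lowest control library, and the knockout mean was 6.12% of the control mean. In reads inferred from the values, the 3 knockout libraries held 38, 17 and 43 fragments of Cd79b. On the log2(FPKM + 1) scale the difference was -2.37 (SE 0.0988, limma adjusted p = 0.000266). It ranked 4 from the most negative of 10828 genes tested, a rank among falls only. No knockout library reached 1 FPKM here. Cd79b thus entered the test (1 FPKM in at least 3 libraries) through its controls alone, and could enter only as a fall. The log2(FPKM + 1) scale understates changes of low genes, and with a pseudocount of 0.1 in place of 1 the difference was -3.76. Of all tested genes, 13.7% were called in this comparison (adjusted p under 0.05), with 7.63% called higher and 6.08% called lower in the knockouts.

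After deletion with LckCre, the Cd79b difference from control did not pass the test. The Lck knockouts had 3.88, 3.40 and 5.72 FPKM, against 5.77, 4.97 and 6.16 FPKM in Lck controls. The ranges overlapped in that the highest knockout library passed the lowest control library. On the log2 scale the difference was -0.33 (SE 0.165, 95% interval -0.73 to 0.07, limma adjusted p = 0.446), where 1% of 10946 genes were called, 0.201% as higher and 0.804% as lower. Tcf3 itself was 18.9% of control in Vav knockouts and 16.4% of control in Lck knockouts at 4 weeks. The effect of the Vav deletion minus that of the Lck deletion was -2.04 for Cd79b (SE 0.203, interaction in limma, adjusted p = 0.000836). It ranked 8 from the most negative of 10541 genes, of which 3.3% were called, 1.65% in each direction. Among the 4-week Vav libraries, Cd79b entered this test through the controls alone. The effects on Tcf3 differed by 0.16 (adjusted p = 0.513, 95% interval -0.08 to 0.39).

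At 8 weeks Cd79b was close to the limit of detection in Vav knockouts. They had 0, 0.0265 and 0.0809 FPKM, or 0, 1 and 4 inferred reads, and the transplanted knockouts had 0.0558, 0.136, 0.449 and 1.15 FPKM, or 2, 7, 24 and 49 inferred reads. The Vav controls had 5.64, 5.13 and 6.61 FPKM. Apart from transplanted replicate 4, only these controls reached 1 FPKM, so Cd79b entered the 8-week test mainly through them. Every knockout library, transplanted or not, was below every control library, while transplanted and non-transplanted knockouts overlapped. Against control the log2 difference was -2.71 in Vav knockouts (SE 0.256, limma adjusted p = 0.000551) and -2.28 in transplanted knockouts (SE 0.239, limma adjusted p = 0.000669). The share of the 11632 genes that was called was 9.1% in Vav knockouts, 4.65% as higher and 4.45% as lower. It was 9.19% in transplanted knockouts, 4.59% as higher and 4.6% as lower. The knockout mean was 0.618% of control and the transplanted mean 7.75% of control. Transplanted minus non-transplanted was 0.43 (SE 0.239, 95% interval -0.11 to 0.96, limma adjusted p = 0.853). In that comparison 0% of genes were called by limma, while 681 of 11632 had an unadjusted p under 0.05, and 3 were called without the filter on low values. The 2 transplanted libraries with the most Cd79b, replicates 4 and 3, had 0.293 and 16.1 FPKM of Lyz2, a macrophage marker, against 2.20 and 4.31 FPKM in replicates 1 and 2.

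Markers of other cells were measured beside Cd79b. The 4 plasmacytoid dendritic cell markers summed to 1.03 to 3.05 FPKM in Vav knockouts, against 1.86 to 1.95 FPKM in Vav controls, at 4 weeks, and to 1.36 to 2.11 FPKM in Lck knockouts, against 1.60 to 1.77 FPKM in Lck controls. At 8 weeks they summed to 0.274 to 1.90 FPKM in Vav knockouts and 0.118 to 1.70 FPKM in transplanted knockouts, against 2.21 to 2.31 FPKM in Vav controls. Pacsin1 was the only one of the 4 tested. On the log2(FPKM + 1) scale it fell in Vav knockouts by 0.36 at 4 weeks (limma adjusted p = 0.0328). At 8 weeks it fell by 1.19 there (limma adjusted p = 0.0428). No Vav knockout library reached 1 FPKM of Pacsin1 at 8 weeks, so it entered that test mainly through the controls. The other markers were low and mixed. At 8 weeks Siglech averaged 0.0949 FPKM in Vav knockouts and 0.0352 FPKM in controls, and Klk1 0.444 and 0.124 FPKM. Cox6a2 averaged 0.0264 and 0.188 FPKM there. At 4 weeks Cox6a2 averaged 0.691 and 0.125 FPKM, Klk1 0 and 0.0203 FPKM, and Siglech 0.0023 FPKM in both groups. Pacsin1 had 0.693, 0.0406, 0.264 and 1.60 FPKM in transplanted knockouts, and was thus highest in replicate 4, the transplanted library with the most Cd79b. In that library Siglech and Klk1 were at 0 and Cox6a2 was at 0.0940 FPKM. The 5 thymic stroma markers summed to 0.480 to 0.631 FPKM in Vav knockouts, against 1.35 to 1.55 FPKM in Vav controls, at 4 weeks, and to 0.396 to 1.61 FPKM in Lck knockouts, against 1.42 to 2.33 FPKM in Lck controls. At 8 weeks their sum was 0.143 to 1.63 FPKM in Vav knockouts and 0.444 to 1.26 FPKM in transplanted knockouts, against 1.45 to 1.5 FPKM in Vav controls. Among them Epcam, an epithelial adhesion molecule, fell by 0.80 on the log2(FPKM + 1) scale in Vav knockouts at 4 weeks (limma adjusted p = 0.00326). It averaged 0.297 FPKM there and 1.26 FPKM in Vav controls, most of the control sum, and entered the test through the controls alone. In the same groups Krt8 averaged 0.223 and 0.161 FPKM, Foxn1 0.0128 and 0.00861 FPKM, and Krt5 0.00977 and 0.0173 FPKM. Pdgfra was at 0 in both. The 6 dendritic cell and macrophage markers, Lyz2 among them, summed to 1.34 to 6.65 FPKM in Vav knockouts and 0.385 to 17.8 FPKM in transplanted knockouts, against 0.291 to 1.65 FPKM in Vav controls, at 8 weeks. The 4 erythroid markers summed to 3.52 to 16.7 FPKM in Vav knockouts and 29.1 to 72.6 FPKM in transplanted knockouts, against 14.2 to 31.7 FPKM in Vav controls, at 8 weeks. The part of these cells in the Cd79b values was not tested.

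The Vav effect on Cd79b at 8 weeks minus that at 4 weeks was -0.34 (SE 0.146, limma adjusted p = 0.133), where 18.2% of 10489 genes were called, 8.87% as higher and 9.37% as lower. With a pseudocount of 0.1 it was -1.72 (adjusted p = 0.0144), and without Vav knockout replicate 2 of the 4-week table it was -0.43 (adjusted p = 0.0495). Ordered by mean level, which is a description across separately normalised tables, Cd79b averaged 0.0358 ± 0.0413 FPKM in Vav knockouts at 8 weeks, 0.371 ± 0.141 FPKM in Vav knockouts at 4 weeks and 0.449 ± 0.500 FPKM in transplanted knockouts. It averaged 4.33 ± 1.22 FPKM in Lck knockouts and 5.63 ± 0.606, 5.79 ± 0.753 and 6.06 ± 0.386 FPKM in Lck controls, 8-week Vav controls and 4-week Vav controls (SD, n = 3, with n = 4 for transplanted). In that order each group's range overlapped the range of the next among the Lck knockouts and controls, and the transplanted range overlapped those of both Vav knockout groups.

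**Figure D2:**
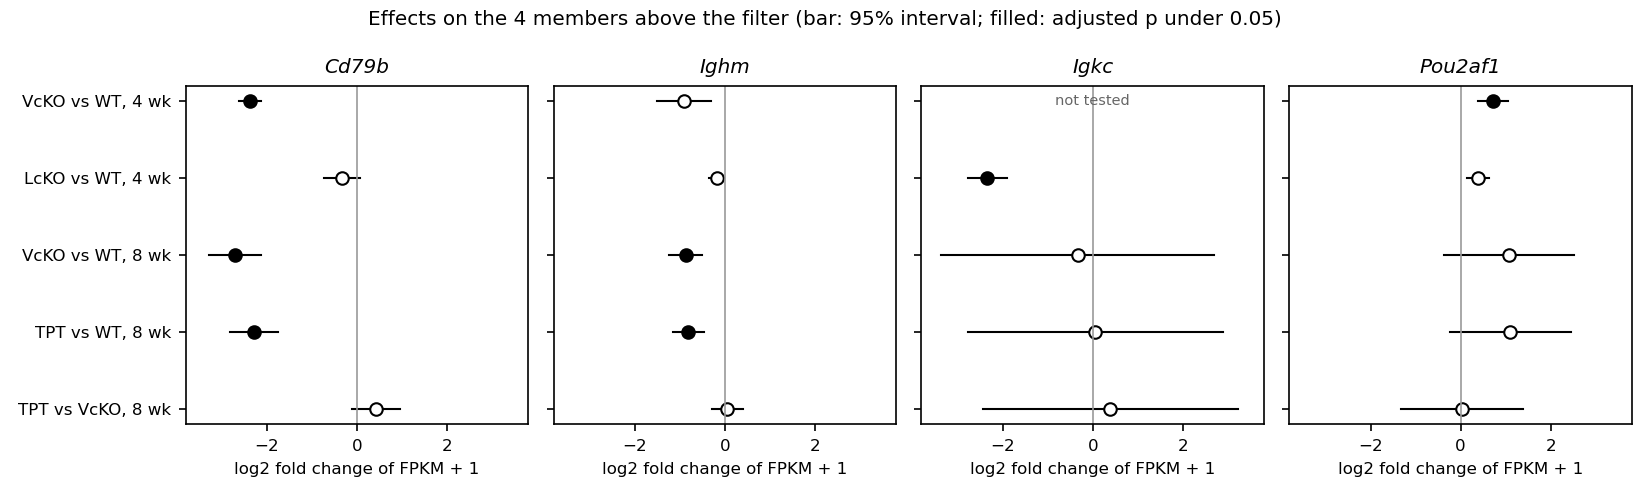
Difference of each comparison in log2(FPKM + 1) for the 4 genes that passed the filter, with 95% intervals from limma, filled where the adjusted p was under 0.05. Cd79b differed by -2.28 or more in size in the 3 comparisons of Vav-deleted libraries with controls and by -0.33 in Lck knockouts, and Igkc was not tested in the 4-week Vav table.

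Cd79a (ENSMUSG00000003379, mm10 chromosome 7, 24897381 to 24902197, plus strand, protein-coding), the partner chain also called Ig-alpha, lay between 0.219 and 1.14 FPKM in all libraries and did not pass the filter of 1 FPKM in at least 3 libraries. At 4 weeks the Vav knockouts had 0.760, 0.529 and 0.597 FPKM, against 0.563, 0.638 and 0.513 FPKM in Vav controls. The Lck knockouts had 1.08, 0.626 and 0.813 FPKM, against 0.885, 0.631 and 0.515 FPKM in Lck controls. Both pairs overlapped, with exact two-sided permutation p = 0.6 and p = 0.5, where 0.1 is the smallest that 3 against 3 libraries allow.

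At 8 weeks the Vav knockouts had the lowest Cd79a values of the table. They had 0.358, 0.239 and 0.219 FPKM (10, 5 and 6 inferred reads), and the transplanted knockouts had 0.403, 0.735, 0.674 and 0.722 FPKM. The Vav controls had 0.586, 1.14 and 0.912 FPKM. The Vav knockouts lay below all other libraries of the table, and the transplanted knockouts overlapped the controls. The exact permutation p was 0.1 for Vav knockouts against controls and 0.0571 for transplanted against Vav knockouts, each the smallest its design allows, and 0.229 for transplanted knockouts against controls. Fitted without the filter, the difference of Vav knockouts from controls was -0.55 (limma adjusted p = 0.0682). The 2 receptor chains thus had unlike values at 4 weeks in Vav knockouts, with Cd79b at 6.12% of control and Cd79a at 110.0% of control.

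Ighm (ENSMUSG00000076617, mm10 chromosome 12, 113418558 to 113422730, minus strand, an immunoglobulin constant gene), which encodes the mu heavy chain constant region, had the highest FPKM of the 6 genes in every library. Thymocytes are known to transcribe this locus in unrearranged or partly rearranged form, and gene-level FPKM does not separate such transcripts from those of a complete heavy chain. At 4 weeks the Vav knockouts had 68.2, 137 and 76.8 FPKM, against 161, 177 and 169.8 FPKM in Vav controls. All 3 knockout libraries were below the controls, but replicate 2 lay between the other knockouts and the controls. The log2 difference was -0.91 (SE 0.247, limma adjusted p = 0.0573) and did not pass. Without Vav knockout replicate 2 it was -1.21 (limma adjusted p = 0.00171).

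The Lck knockouts had 149, 159 and 162 FPKM of Ighm, against 179, 164 and 191 FPKM in Lck controls. The ranges did not overlap, and the difference of -0.18 was small (SE 0.0679, limma adjusted p = 0.314). The Vav effect minus the Lck effect was -0.73 (SE 0.282, limma adjusted p = 0.215), and -1.03 (limma adjusted p = 0.00138) without Vav knockout replicate 2.

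At 8 weeks Ighm fell in both Vav-deleted groups. The Vav knockouts had 99.1, 128 and 94.9 FPKM and the transplanted knockouts 122, 121, 95.03 and 107 FPKM, against 196, 178 and 213 FPKM in Vav controls. No knockout library reached a control library. The log2 difference was -0.87 in Vav knockouts (SE 0.164, limma adjusted p = 0.0136) and -0.81 in transplanted knockouts (SE 0.153, limma adjusted p = 0.0129), and 0.06 between transplanted and Vav knockouts (SE 0.153, 95% interval -0.29 to 0.40, limma adjusted p = 0.95). In Vav knockouts the call depended on single libraries, with an adjusted p of 0.0634 without knockout replicate 1, 0.0642 without knockout replicate 3, 0.0627 without control replicate 1 and 0.0675 without control replicate 3 (limma). In transplanted knockouts it was 0.0631 without control replicate 1 and 0.0711 without control replicate 3. The 8-week Vav effect minus the 4-week one was 0.04 (SE 0.307, limma adjusted p = 0.943), and its sign turned with the scaling (-0.04 with a common sum).

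Vav knockout replicate 2 at 4 weeks, with the highest Ighm of its group, also had more of the neighbouring heavy chain segments, a comparison made after the values were seen. The 4 heavy chain joining segments summed to 2.33, 48.8 and 2.96 FPKM in Vav knockouts at 4 weeks, against 31.1, 17.7 and 11.8 FPKM in Vav controls. Ighd, the delta constant gene beside Ighm, had 0.153, 1.38 and 0.258 FPKM in those knockouts, against 0.955, 0.659 and 0.819 FPKM in those controls. In both readouts knockout replicate 2 was above every control library, and the other knockouts were below them. The Vav knockouts at 8 weeks had 25.9, 22.1 and 5.92 FPKM of joining segments and the transplanted knockouts 55.5, 0, 9.30 and 12.95 FPKM, against 29.9, 12.2 and 43.1 FPKM in Vav controls, with overlapping ranges. The part of these segments in the Ighm values was not tested.

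Igkc (ENSMUSG00000076609, mm10 chromosome 6, 70726435 to 70726966, plus strand, an immunoglobulin constant gene overlapped by the noncoding gene Gm30211), the constant region of the kappa light chain, was nearly undetected in both 4-week knockouts. The Lck knockouts had 0, 0 and 0.204 FPKM (0, 0 and 1 inferred reads), against 3.19, 4.93 and 5.28 FPKM (16, 26 and 25 reads) in Lck controls. The log2 difference was -2.34 (SE 0.177, limma adjusted p = 0.0103), the largest fall of 10946 genes. No knockout library reached 1 FPKM, so Igkc entered the test through the controls alone and could enter only as a fall. From the summed reads the ratio was 0.0200 (95% exact counting interval 0.0005 to 0.116). It was no longer called when Lck control replicate 2 (limma adjusted p = 0.0541) or replicate 3 (0.0571) was left out.

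The Vav knockouts at 4 weeks had 0, 0 and 0.174 FPKM of Igkc (0, 0 and 2 reads), against 0.907, 1.57 and 1.74 FPKM (10, 18 and 21 reads) in Vav controls. The groups did not overlap, and the ratio of summed reads was 0.0440 (95% exact counting interval 0.00518 to 0.168). Igkc did not pass the filter in this table. The exact permutation p was 0.1, the smallest possible, and a fit without the filter gave -1.17 (limma adjusted p = 0.0224). Such intervals cover counting error only.

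At 8 weeks Igkc showed no such loss and varied widely within each group. The Vav knockouts had 0.646, 12.7 and 20.4 FPKM and the transplanted knockouts 5.67, 6.79, 68.4 and 2.11 FPKM, against 16.2, 1.43 and 22.2 FPKM in Vav controls. All 3 groups overlapped. The log2 difference from control was -0.33 in Vav knockouts (SE 1.34, 95% interval -3.36 to 2.69, limma adjusted p = 0.886) and 0.06 in transplanted knockouts (SE 1.26, 95% interval -2.77 to 2.89, limma adjusted p = 0.981, and -0.03 with scaling to a common sum). Transplanted minus Vav knockouts was 0.39 (SE 1.26, limma adjusted p = 0.957). Intervals of this width hold both a large fall and a large rise. From the summed reads the ratio to control was 0.713 in Vav knockouts (95% exact counting interval 0.587 to 0.866). It was 1.51 in transplanted knockouts (1.30 to 1.77). Both counting intervals leave out 1 although the groups overlapped, as they leave out the spread between libraries.

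Other immunoglobulin genes were counted in the same libraries. Of 103 kappa variable segments in the files, 0, 0 and 0 were above 0 in Lck knockouts, against 2, 3 and 3 in Lck controls. In the 4-week Vav knockouts 0, 0 and 2 were above 0, against 2, 3 and 4 in Vav controls. At 8 weeks 0, 10 and 22 were above 0 in Vav knockouts and 4, 10, 10 and 4 in transplanted knockouts, against 9, 2 and 15 in Vav controls. The kappa variable sum was highest in transplanted replicate 3, at 26.5 FPKM, the library that also had the highest Igkc. That library had the highest levels of Jchain (1.31 FPKM), the joining chain of secreted antibody, of Igha (3.56 FPKM), the alpha heavy chain gene, and of Lyz2 (16.1 FPKM). Jchain was 0.0650, 0 and 0 FPKM in Lck knockouts, against 0.263, 0.638 and 0.433 FPKM in Lck controls.

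The 11 B cell markers summed to 0.231 to 0.430 FPKM in Lck knockouts, against 0.310 to 0.909 FPKM in Lck controls. Their sum was 0.193 to 0.441 FPKM in Vav knockouts, against 0.172 to 0.476 FPKM in Vav controls, at 4 weeks, with overlap in both pairs. At 8 weeks it was 0.208 to 0.795 FPKM in Vav knockouts and 0.158 to 0.813 FPKM in transplanted knockouts, against 0.125 to 0.642 FPKM in Vav controls. Ms4a1 and Pax5 were at 0 in every Lck library and every 4-week Vav knockout library. The 4 plasma cell markers summed to 2.55 to 5.67 FPKM in Lck knockouts and 2.95 to 6.92 FPKM in Lck controls, mostly Mzb1, a chaperone of antibody assembly. Their sum was 6.61 to 25.6 FPKM in Vav knockouts, against 10.2 to 10.9 FPKM in Vav controls, at 4 weeks. At 8 weeks it was 2.83 to 9.22 FPKM in Vav knockouts and 4.15 to 22.4 FPKM in transplanted knockouts, against 1.03 to 2.57 FPKM in Vav controls. Against 8-week controls Mzb1 rose in transplanted knockouts by 2.54 on the log2(FPKM + 1) scale (SE 0.638, limma adjusted p = 0.0395). In 8-week Vav knockouts its difference was 1.67 and did not pass (limma adjusted p = 0.144). The controls had 0.441, 0.612 and 1.21 FPKM of Mzb1, so it entered the 8-week test mainly through the knockouts. The other plasma cell markers did not rise in transplanted knockouts. Jchain averaged 0.495 FPKM in transplanted knockouts and 0.621 FPKM in controls, Derl3 0.242 and 0.296 FPKM, and Tnfrsf17 was at 0 in both groups. The part of antibody-secreting or other B-lineage cells in the Igkc values was not tested.

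**Figure D3:**
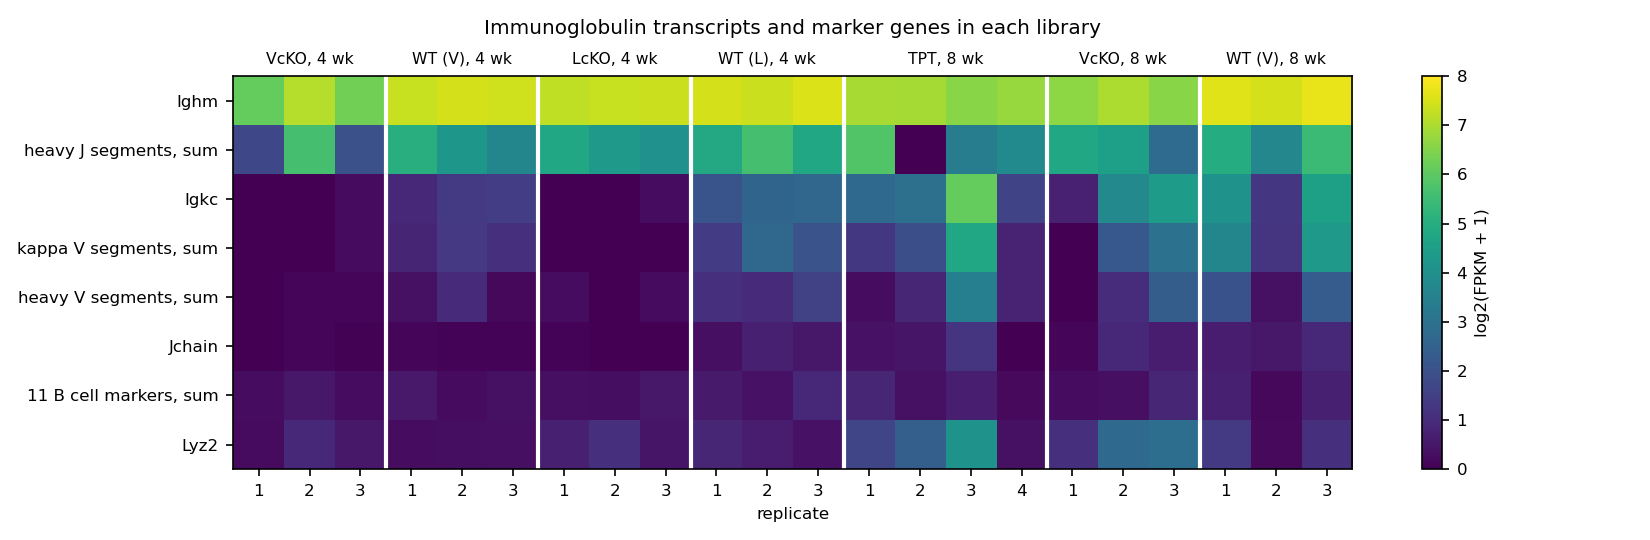
Level of Ighm, Igkc, summed immunoglobulin segments, Jchain, 11 summed B cell markers and Lyz2 in each library as colour on the log2(FPKM + 1) scale, with replicates in columns by group. Igkc and the kappa segments were dark in the 4-week knockouts and brightest in transplanted replicate 3, where Igkc was 68.4 FPKM.

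Igll1 (ENSMUSG00000075370, mm10 chromosome 16, 16860671 to 16863985, minus strand, protein-coding), which encodes the lambda5 surrogate light chain, was barely detected. Its highest value in any library was 0.150 FPKM, and it passed the filter in no table. At 4 weeks the Vav knockouts had 0.0165, 0.0258 and 0.00751 FPKM (2, 3 and 1 reads), against 0.0628, 0.0528 and 0.0429 FPKM (8, 7 and 6 reads) in Vav controls. Those groups did not overlap, with a ratio of summed reads of 0.308 (95% exact counting interval 0.102 to 0.788) and an exact permutation p of 0.1, the smallest possible. The counting interval leaves out the spread between libraries. A fit without the filter gave -0.05 on the log2(FPKM + 1) scale, which is compressed at such levels (limma adjusted p = 0.0909). The Lck knockouts had 0, 0.0488 and 0.0353 FPKM, against 0, 0.0492 and 0 FPKM in Lck controls, and 3 reads were inferred in each group.

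At 8 weeks Igll1 was listed at 0 in all 3 Vav knockouts, and the transplanted knockouts had 0.0196, 0.150, 0.0131 and 0.0332 FPKM (1, 11, 1 and 2 reads). The Vav controls had 0.0153, 0 and 0.0890 FPKM (1, 0 and 7 reads). Transplanted and Vav knockouts did not overlap (exact permutation p = 0.0571, the smallest possible), while both overlapped the controls. For Vav knockouts against controls, 0 against 8 reads gave an exact 95% counting interval of 0 to 0.554 for the ratio, which covers counting error only, with 7 of the 8 reads in 1 control library. Over libraries the exact permutation p was 0.4 for Vav knockouts against controls and 0.686 for transplanted knockouts against controls.

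Pou2af1 (ENSMUSG00000032053, mm10 chromosome 9, 51213708 to 51240080, plus strand, protein-coding, overlapped by the noncoding gene Gm47828), a coactivator that joins octamer-binding factors at immunoglobulin promoters, went the opposite way. At 4 weeks the Vav knockouts had 2.80, 3.37 and 4.33 FPKM, against 1.52, 1.64 and 2.03 FPKM in Vav controls. The groups did not overlap, and the knockout mean was 2.03-fold higher. On the log2(FPKM + 1) scale the rise was 0.71 (SE 0.139, limma adjusted p = 0.0212), where 7.63% of tested genes were called as higher. Leaving out Vav control replicate 1 gave an adjusted p of 0.0823 and leaving out replicate 2 gave 0.0808, so that neither fit called it, nor did one without the filter on low values (adjusted p = 0.0625).

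The Lck knockouts had 3.19, 2.98 and 2.67 FPKM of Pou2af1, against 1.73, 1.96 and 2.42 FPKM in Lck controls, with no overlap. Their difference was 0.38 on the log2 scale (SE 0.104, limma adjusted p = 0.19) and did not pass. The Vav effect minus the Lck effect was 0.33 (SE 0.183, 95% interval -0.07 to 0.73, limma adjusted p = 0.415), so a difference between the drivers was not shown.

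At 8 weeks the Vav knockouts had 4.78, 5.21 and 7.02 FPKM of Pou2af1 and the transplanted knockouts 8.49, 19.2, 1.26 and 3.83 FPKM, against 2.62, 1.87 and 1.997 FPKM in Vav controls. All 3 Vav knockouts and 3 of the 4 transplanted knockouts were above the controls, and transplanted replicate 3 was below them. The log2 difference was 1.07 in Vav knockouts (SE 0.641, limma adjusted p = 0.292) and 1.10 in transplanted knockouts (SE 0.60, limma adjusted p = 0.276), and neither passed. Fitted on those 6 libraries alone, without the spread of the transplanted group, Vav knockouts against controls gave an adjusted p of 0.00283 in limma. That fit called 5087 of 11632 genes. Without transplanted replicate 3 the transplanted difference was 1.63 (limma adjusted p = 0.0232), in a fit that called 3813 of 11632 genes. Transplanted minus Vav knockouts was 0.03 (SE 0.60, limma adjusted p = 0.99, and -0.06 with a pseudocount of 0.1).

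Lists of related genes were set beside the 6. Of 20 genes of the B cell receptor complex and its signalling, 18 were in the files. In the 4-week Vav comparison 3 passed the filter and 1 of these fell, and in each of the other comparisons with controls 4 passed and 1 fell. Over all tested genes, 6.08% were called lower in the 4-week Vav comparison, 0.804% in the Lck comparison, 4.45% in 8-week Vav knockouts and 4.6% in transplanted knockouts. The faller was Syk in all of them, the kinase that binds the phosphorylated CD79 chains. Syk had 0.481, 0.768 and 0.765 FPKM in Vav knockouts at 4 weeks, against 3.73, 3.01 and 3.29 FPKM in Vav controls (log2 difference -1.38, limma adjusted p = 0.00158). In Lck knockouts it had 1.58, 1.58 and 1.89 FPKM, against 3.52, 3.67 and 3.55 FPKM in Lck controls (log2 difference -0.77, limma adjusted p = 0.0145). Unlike Cd79b, Syk was therefore called lower with both drivers, and the Vav effect minus the Lck effect was -0.61 (SE 0.128, limma adjusted p = 0.0288). At 8 weeks Syk was at 0.0289, 0.0849 and 0.0472 FPKM in Vav knockouts and 0.0366, 0.968, 0.0762 and 0.223 FPKM in transplanted knockouts, against 4.22, 4.23 and 3.90 FPKM in Vav controls, with adjusted p of 0.000896 and 0.0009 in limma. Outside the Lck knockouts, no knockout library reached 1 FPKM of Syk, so it entered the Vav and 8-week fits through the controls alone. The list's median difference over tested genes was -0.07 in the 4-week Vav comparison, against -0.01 over all tested genes, and -0.15 in the Lck comparison, against 0.02 over all. At 8 weeks it was -0.17 in Vav knockouts, against -0.0049 over all, and 0.02 in transplanted knockouts, against -0.01 over all. Cd81 and Ptpn6, the other genes tested throughout, did not pass in any comparison and were named after their values were seen. The Vav effect on Syk was also larger in size at 8 weeks than at 4 weeks, by -0.90 (SE 0.133, limma adjusted p = 0.0028).

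Of 15 B-lineage transcription regulators, 5 were tested in the 4-week Vav comparison and 1 fell, 5 in the Lck comparison and 2 fell, and 7 in each 8-week comparison with controls and 1 fell, to be read against the same shares of all genes called lower. The median over tested regulators was -0.16 in the 4-week Vav comparison, -0.05 in the Lck comparison, 0.05 in 8-week Vav knockouts and 0.26 in transplanted knockouts. Xbp1, a regulator of the secretory pathway, was the gene that fell in all of them. It averaged 11.3 ± 0.748 FPKM in Vav knockouts, against 27.7 ± 0.904 FPKM in Vav controls, at 4 weeks (log2 difference -1.23, limma adjusted p = 0.000412). It averaged 17.9 ± 0.893 FPKM in Lck knockouts, against 29.7 ± 0.924 FPKM in Lck controls (SD, n = 3 each, log2 difference -0.70, limma adjusted p = 0.0103). At 8 weeks the Xbp1 difference from control was -2.04 in Vav knockouts (limma adjusted p = 0.000982) and -1.95 in transplanted knockouts (limma adjusted p = 0.000623). Ikzf3, which encodes the zinc finger factor Aiolos, fell by 0.56 in Lck knockouts (limma adjusted p = 0.0282) and differed by -0.40 in 4-week Vav knockouts (limma adjusted p = 0.148). Pax5 was at 0 in all knockout libraries, transplanted ones included, and in all controls but 2, where its highest value was 0.00985 FPKM. None (0) of the 8 immunoglobulin constant genes beside Ighm and Igkc in the files was called in any comparison with controls, and at most 1 of them, Ighd, was tested.

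The genes most like Cd79b were sought among 10449 genes by the root-mean-square difference from Cd79b over the 22 libraries, each taken as log2(FPKM + 1) minus the mean of the controls of its table. The closest were Fgf13 (0.356), Smim3 (0.458), Unc5cl (0.468), Gm37150 (0.488) and Slc30a4 (0.522), against a median of 1.66 over all genes. Fgf13, a fibroblast growth factor homologue, had 0.143, 0.0195 and 0.0595 FPKM in 4-week Vav knockouts, against 4.24, 4.68 and 4.43 FPKM in Vav controls. It had 3.03, 3.28 and 3.03 FPKM in Lck knockouts, against 3.73, 3.52 and 3.23 FPKM in Lck controls. It was listed at 0 in all 3 Vav knockouts and all 4 transplanted knockouts at 8 weeks, against 3.604, 2.66 and 3.15 FPKM in Vav controls. The Fgf13 groups overlapped for LckCre only at the edge, with 3.28 FPKM in the highest knockout and 3.23 FPKM in the lowest control.

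**Figure D4:**
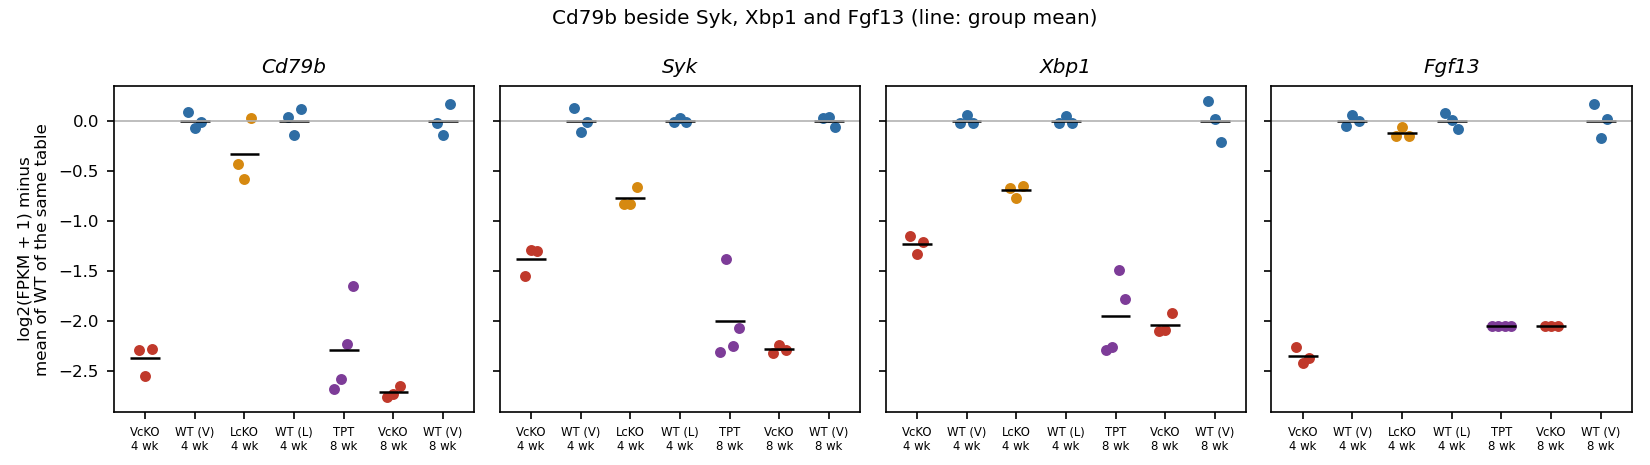
Level of Cd79b, Syk, Xbp1 and Fgf13 in each library as log2(FPKM + 1) minus the mean of the controls of the same table, with a line at the group mean. Lck knockouts lay at -0.33 for Cd79b and -0.13 for Fgf13, and at -0.77 for Syk and -0.70 for Xbp1.

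The genes closest to Ighm by the same measure were Zyx (0.210), which encodes the focal adhesion protein zyxin, Scaper (0.244), Tmcc1 (0.261), Abcg2 (0.262) and Epg5 (0.266), against a median of 0.646. Those closest to Pou2af1 were Mnd1 (0.275), a meiotic recombination factor, Chchd3 (0.281), Tmem97 (0.281), Fam111a (0.289) and Mtap (0.302), against a median of 0.895. Mnd1 differed from its controls by 0.46 in 4-week Vav knockouts, 0.27 in Lck knockouts, 1.08 in 8-week Vav knockouts and 1.02 in transplanted knockouts. Pou2af1 differed by 0.71, 0.38, 1.07 and 1.10 in the same order of groups. These distances share libraries and controls and are descriptions, with no test.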

How the data were processed

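Per the labels' protocols, RNeasy kits gave the RNA of the 22 libraries and NuGEN Ovation Ultralow kits the cDNA. Values are FPKM per gene, which the authors deposited in 3 tables. Trimmomatic 0.33, STAR, HTSeq 0.6.1, DESeq2 and the build mm10 are named per the submitters' processing notes. The annotation, gene lengths and use of strand are not given in the sources used here, so reads of overlapping genes (Igkc with Gm30211, Pou2af1 with Gm47828) cannot be separated. GENCODE of the same build gave symbols for 42462 of 43430 identifiers, and coordinates. 0 columns of sample values were unused, and 0 pairs of libraries were identical.

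Reads were inferred for low genes as multiples of the value of 1 read, fitted per gene and library within a tolerance of 0.12 of a read, and are printed up to 60. They are estimates, so no count test was run. The test was limma 3.58.1 (R 4.3.3), with a mean-variance trend, of log2(FPKM + 1). It covered genes that reached 1 FPKM in 3 libraries or more per fitted table, with Benjamini-Hochberg adjustment over all of them and calls at an adjusted p under 0.05. A gene kept by its controls alone could enter only as a fall. The 4-week fits used 6 libraries each, the 8-week fit 10 libraries, and the differences of effects were interactions over tables. Tables were normalised separately, so levels were tested only within one. Genes under the filter had an exact two-sided permutation test of mean FPKM (SciPy 1.17.1), 11 tests in all, unadjusted. The limma fits were tested on simulated data with known changes, in R. Other steps ran in Python 3.11.15 and were not tested on simulated data.

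Named were the 6 genes, Tcf3, called genes of the lists (up to 6 by smallest p) and those at 0 throughout, and the 5 genes nearest in pattern. The genes, lists and rules were chosen with earlier results of these data known. Genes of the marker and receptor lists that are not reported here were left out of their sums and counts. Alternatives were a pseudocount of 0.1, no filter, 2 other scalings, a replicate block, fits of 2 groups only, and each library left out. Same-numbered libraries were not paired in the main fits, as the labels name no pairing. The correlation of their deviations from group means was between -0.109 and 0.181, which cannot settle whether they belong together.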

Additional observations from a re-analysis of the deposited data

Results flagged for a closer look

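Within the 4 transplanted knockouts, 7 genes (the 6 and Tcf3) were screened for a library far from the others, and 3 had one. Chance flags about 1 in 20 groups. Igkc was 68.4 FPKM in transplanted replicate 3, against 2.11 to 6.79 FPKM in the other transplanted libraries. Igll1 was 0.150 FPKM in transplanted replicate 2, against 0.0131 to 0.0332 FPKM in the others, and rested on 11 inferred reads. Tcf3 was 2.32 FPKM in transplanted replicate 3, against 1.21 to 1.31 FPKM in the others. The Igkc and Tcf3 values belong to the library with the lowest correlation with its group.

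Cd79b differed between the drivers of Cre at 4 weeks. The Vav effect minus the Lck effect was -2.04 in an interaction test (limma adjusted p = 0.000836), with all 3 Vav knockout libraries below every library of their controls and the Lck knockouts overlapping theirs.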

How the results depend on the processing

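Over the tested results for Tcf3 and the 6 genes, 32 results gave 475 alternative values, of which 436 kept direction and side of the threshold. The falls of Cd79b in both Vav knockouts and transplanted knockouts, and its difference between drivers, kept both under every alternative run. Signs turned in 19, all for differences that were not called: Igkc and Pou2af1 at 8 weeks, and Ighm between transplanted and Vav knockouts and between ages. The cause was not tested.

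Replicate numbers were used as a block although the labels name no pairing of the libraries. With the replicate block the Lck fall of Igkc was -2.34 (limma adjusted p = 0.0596), and the 8-week differences of Ighm were -0.87 in Vav knockouts (0.0598) and -0.80 in transplanted knockouts (0.0725), all no longer called. The block left 894 genes called for Vav at 4 weeks (1484 without it), 4 for Lck (110), 568 for Vav at 8 weeks (1059), 568 for transplanted against control (1069), 148 for the difference between drivers (348) and 1178 for that between ages (1913).

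Without the filter, 63 genes were called for Lck and 3 for transplanted against Vav knockouts, and the 4-week Vav rise of Pou2af1, 0.71, was not called. With only the compared groups fitted, 5087 genes were called for Vav at 8 weeks, Pou2af1 (1.07) among them, and 522 for transplanted against control. With a pseudocount of 0.1 the difference between ages of Cd79b was -1.72 and called, and Pou2af1 in transplanted against Vav knockouts was -0.0607. Scaling to a common sum gave -0.0316 for Igkc in transplanted knockouts against control and -0.0427 for the difference between ages of Ighm. It also gave 37.7% higher calls for Vav at 4 weeks (55.7% as deposited), 6.38% for Lck (20%) and 32.2% between ages (48.6%), and moved the median of all genes to -0.12 for Vav at 8 weeks.

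With 1 library left out at a time, calls ranged from 588 to 1704 for Vav at 4 weeks, 3 to 80 for Lck, 302 to 3525 for Vav at 8 weeks, 329 to 3813 for transplanted against control, 0 to 5 for transplanted against Vav knockouts, 186 to 497 between drivers and 1009 to 2212 between ages. The highest 8-week counts, 3525 and 3813, came without transplanted replicate 3. For Ighm the differences ranged from -1.21 to -0.72 for Vav at 4 weeks, -1.0 to -0.79 for Vav at 8 weeks, -0.88 to -0.74 for transplanted against control, -0.0249 to 0.19 for transplanted against Vav knockouts, -1.03 to -0.53 between drivers and -0.15 to 0.34 between ages. For Igkc they ranged from -2.52 to -2.23 for Lck, -1.35 to 0.79 for Vav at 8 weeks, -0.96 to 0.67 for transplanted against control and -0.74 to 1.11 for transplanted against Vav knockouts. For Pou2af1 they ranged from 0.58 to 0.83 for Vav at 4 weeks, 0.58 to 1.63 for transplanted against control and -0.49 to 0.56 for transplanted against Vav knockouts. For Cd79b between ages they ranged from -0.43 to -0.25.

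Pou2af1 also passed for transplanted knockouts against control without transplanted replicate 3 (1.63). Depth limits Cd79a, Igll1 and, at 4 weeks, Igkc, whose values rest on few reads.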
